A study of Homo sapiens with 8 samples.

Results

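The response of MDA-MB-231 cells to EMD37 was compared between 12 h and 24 h, gene by gene, as a treatment by time interaction. The interaction is the log2 fold change of EMD37 against vehicle at 24 h minus the same at 12 h. Every library of the series entered it, 8 of 8, and 14850 genes were tested. MDA-MB-231 is an established human line of triple-negative breast cancer. All cells grew in DMEM with 10% FBS, L-glutamine and penicillin-streptomycin. The 4 groups were DMSO vehicle at 12 h, EMD37 (0.5 µM) at 12 h, and the same pair at 24 h, each with 2 libraries, A and B. EMD37 is a compound known here by its code name, and the series was set up around endoplasmic reticulum (ER) stress.

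Unfolded protein in the ER is sensed by PERK, IRE1 and ATF6. PERK slows protein synthesis and raises translation of the transcription factor ATF4, IRE1 splices the message of XBP1, and ATF6 is cut free to act as a transcription factor. ATF6 and XBP1 raise chaperones and ER-associated degradation (ERAD), which carries misfolded protein out of the ER. ATF4 raises amino acid supply and, through DDIT3 (CHOP), genes tied to cell death.

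The total of counted reads ran from 8.99 M to 11.44 M per library (M for mega), and replicate correlations over genes ran from 0.988 to 0.992. Whether A and B came from separate cultures is not in the labels. Each p-value is therefore set against the spread of these libraries alone, which may be technical. Of 16 markers of the line, 15 reached 1 CPM (reads scaled to library size) in some library, among them VIM and CD44, and their summed level was 9150 to 11300 CPM. Summed markers of leukocytes lay between 2.74 and 6.67 CPM and those of fibroblasts between 12.6 and 21.5 CPM. Summed markers of endothelial cells lay between 87.9 and 118 CPM, of which ESAM alone held 84.7 to 113 CPM. Under 1 CPM in every library were 10 of 14 leukocyte, 7 of 13 fibroblast and 6 of 9 endothelial markers, VWF and PTPRC among them. The libraries came from a kit that does not mark strand, so reads of a gene and its antisense partner could not be told apart. Calls below are edgeR quasi-likelihood tests with an adjusted p under 0.05. The error after a log2 value is the standard error from that fit, and paired CPM values are libraries A and B.

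EMD37 acted differently at the later time on 2361 genes, 15.9% of those tested. The effect at 24 h lay above that at 12 h for 1182 genes (7.96%) and below it for 1179 (7.94%). The difference was at least 2-fold for 283 and 278 of them. Shares of 7.96% higher and 7.94% lower are the background for every gene list below. A list direction near its background share is no result about that list. Over all genes tested the median interaction was -0.04. EMD37 against vehicle was called for 1292 genes at 12 h (8.70%; 5.27% higher and 3.43% lower) and for 6044 at 24 h (40.7%; 19.6% higher and 21.1% lower). Calls moved by more than 1.5 times when single libraries were left out. They numbered 1389 without vehicle 12 h A, 1569 without vehicle 12 h B, 1441 without EMD37 12 h A, 1190 without EMD37 12 h B and 1432 without EMD37 24 h B. Called genes of the count table that are named below kept the call with each library left out in turn. Exceptions are stated where they occur. Genes absent from the count table were not refitted with libraries left out.

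Most interactions were effects that grew. A rise that grew was called at 24 h and was larger there than at 12 h, and it was found for 1094 genes (46.3% of the interactions and 7.37% of genes tested). A fall that grew was found for 1046 genes (44.3% and 7.04%). Of the growing rises 875 were late, meaning not called at 12 h, and 219 were amplified from a rise called at 12 h. Of the growing falls 913 were late and 133 amplified. Rises that faded, larger at 12 h and called there, numbered 78 (0.525% of genes tested), of which 48 were no longer called at 24 h and 30 were smaller. Falls that faded numbered 28 (0.189%). A further 19 genes (0.128%) were called lower at 12 h and higher at 24 h, 18 (0.121%) were called higher and then lower, and 78 belonged to none of these classes. The classes were cut from the same fit as the interaction, so they describe it and add no test. The class counts moved with single libraries. Growing rises numbered 712 without vehicle 12 h A, 684 without EMD37 12 h A, 649 without EMD37 12 h B and 661 without EMD37 24 h B. Growing falls numbered 596 and 601 without vehicle 12 h A and B, 639 and 462 without EMD37 12 h A and B, and 611 and 647 without EMD37 24 h A and B. Fading rises numbered 39 and 50 without vehicle 12 h A and B, 41 and 35 without EMD37 12 h A and B, and 151 without vehicle 24 h A.

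**Figure D1:**
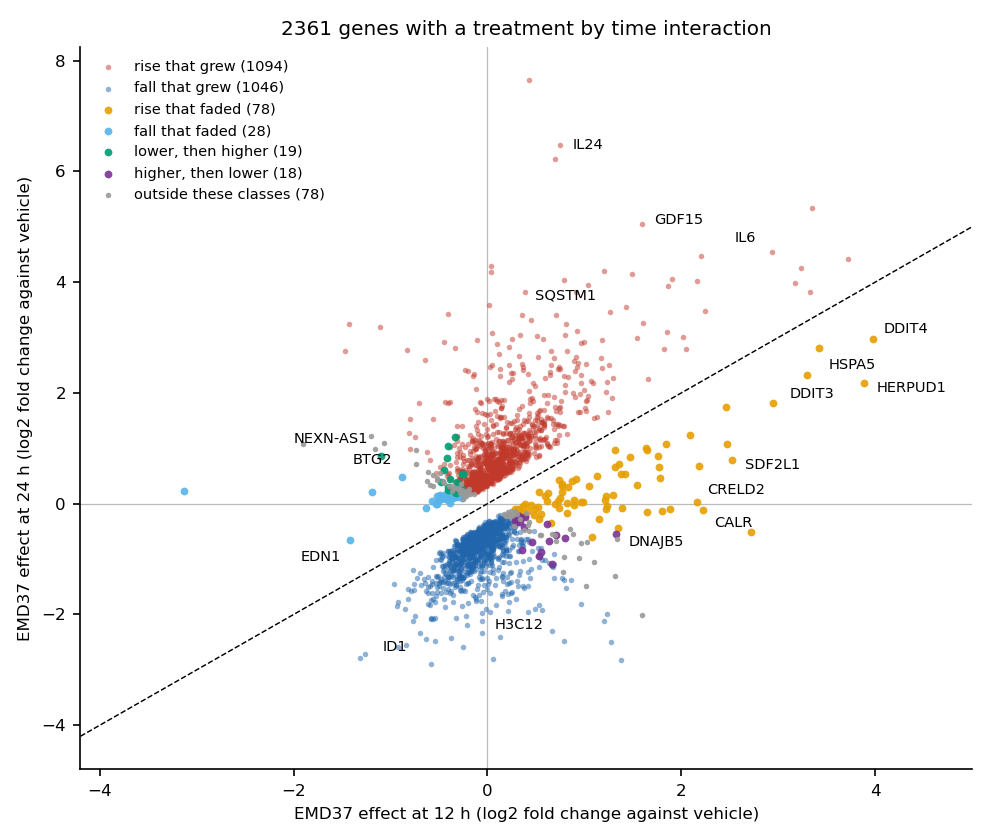
Each point is 1 of the 2361 genes with an interaction, placed by its log2 fold change of EMD37 against vehicle at 12 h (x axis) and at 24 h (y axis) and coloured by class; the dashed line marks equal effects. Growing rises such as IL24 (0.75 at 12 h, 6.49 at 24 h) lie above the line, and fading rises such as HERPUD1 (3.88, 2.18) lie below it on the right.

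Proteins that fold others inside the ER led the rises that faded. The list of the ATF6 arm and ER chaperones had 28 measured members, of which 9 were called lower in the interaction and 4 higher, against 7.94% and 7.96% of all genes. All 9 were fading rises, a class that held 0.525% of all genes tested. The list's median EMD37 effect was log2 1.23 at 12 h and 0.73 at 24 h, and its median interaction was -0.26. Without single libraries the lower calls numbered 6 (EMD37 12 h B) to 11, while the 4 higher calls fell to 2 without vehicle 12 h A, EMD37 12 h A, EMD37 12 h B or EMD37 24 h B.

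CRELD2, an ER-resident protein induced by stress (chromosome 22, 49918167 to 49927540 on hg38), returned to its vehicle level. Its vehicle libraries held 6.0 and 7.27 CPM at 12 h and 8.23 and 6.57 at 24 h. EMD37 libraries held 30.2 and 29.4 CPM at 12 h, far above vehicle, and 7.18 and 8.01 at 24 h, inside the vehicle range. The effect was log2 2.16 at 12 h and 0.03 at 24 h, an interaction of -2.13 ± 0.26 (adjusted p = 3.92e-05). CALR, the lectin chaperone calreticulin, went from log2 2.23 to -0.12 (interaction -2.35 ± 0.27, adjusted p = 2.75e-05). Its counts were low for so abundant a message, with vehicle at 7.32 and 6.93 CPM and then 5.74 and 6.03, and EMD37 at 33.1 and 33.6 and then 6.44 and 4.44. The vehicle and EMD37 libraries of CALR overlapped at 24 h and not at 12 h. Several usually abundant genes had few reads in this table, and the fold of CALR rests on the reads counted.

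SDF2L1, a partner of ER chaperones, and MANF, a secreted ER stress protein, faded without reaching the vehicle level. SDF2L1 stood at 9.65 and 9.06 CPM in vehicle and 52.0 and 55.9 with EMD37 at 12 h, and at 8.14 and 10.6 against 15.7 and 16.3 at 24 h. MANF stood at 65.7 and 62.4 CPM against 218 and 222 at 12 h, and at 59.5 and 59.6 against 79.8 and 85.0 at 24 h. For both genes each EMD37 library lay above each vehicle library at each time, by a smaller margin at 24 h. Their interactions were -1.74 ± 0.22 (adjusted p = 5.07e-05) and -1.31 ± 0.11 (adjusted p = 1.25e-06). DNAJC3, a co-chaperone that also restrains PERK, went from log2 1.32 to 0.66 (interaction -0.66, adjusted p = 0.000469).

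HSPA5 (BiP), the main ER chaperone of the HSP70 family, stayed far above vehicle while its effect shrank. Vehicle libraries held 372 and 416 CPM at 12 h and 365 and 342 at 24 h. EMD37 libraries held 3903 and 4520 CPM at 12 h and 2343 and 2624 at 24 h. The effect fell from 10.7-fold to 7.02-fold, an interaction of -0.61 ± 0.13 (adjusted p = 0.00522). That call was lost without vehicle 12 h A (adjusted p = 0.0542) and without EMD37 12 h B (adjusted p = 0.0688). The EMD37 libraries averaged 4211 ± 436 CPM (SD, n = 2) at 12 h and 2484 ± 198 CPM at 24 h, and did not overlap.

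Other chaperones of the list grew further or had no called interaction. CANX, the membrane-bound partner of CALR, rose further, from log2 0.40 to 0.92 (interaction 0.52, adjusted p = 0.00403). HSPA13 went from log2 0.55 to 1.33 (interaction 0.78, adjusted p = 0.000202). HYOU1, an ER chaperone of the HSP110 family, had an effect of log2 1.75 at both times, and its interaction of 0.01 was not called (adjusted p = 0.984). HSP90B1, the ER form of HSP90, had log2 1.71 and 1.34, with an interaction of -0.36 and an adjusted p of 0.105. It passed the threshold without vehicle 24 h B (0.00286), without EMD37 24 h B (0.0422), with total-count scaling (0.0344) and with no filter on low counts (0.0367). Over time under EMD37 it fell by 0.37 on the log2 scale (adjusted p = 0.0119).

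The promoters of the fading rises were searched for the ER stress response element (ERSE), bound by ATF6 with the factor NF-Y and searched on either strand as CCAAT and CCACG with 9 bases of any kind between them. RefSeq promoters on GRCh38.p14, from 250 bases before to 50 after the start site, were matched for 63 of the 78 genes. The element was present in 6 of these 63 (9.52%): CALR, CRELD2, ERO1B, FICD, HSPA5 and TRIM5. It was present in 14 of 10760 promoters of tested genes (0.13%) and in 22 of 27305 promoters of the whole table (0.0806%). Among growing rises 1 of 860 held it, that of CANX, and among growing falls 0 of 849. The remaining tested genes with the element lay outside the classes of growing, fading or turned effects. Genes raised by EMD37 without a called interaction were not compared as a group, so whether the element is particular to fading was not tested. A match is a run of letters and not a shown site, and each ERSE also holds a CCAAT box, which was present in 61.9% of the fading rises, 36.6% of tested genes and 35.7% of the whole table. The interaction calls of CALR and CRELD2 held under every alternative setting, whereas those of HSPA5, ERO1B, FICD and TRIM5 were lost under 2, 3, 5 and 8 of them. ERO1B lost its call without vehicle 12 h B (adjusted p = 0.123), EMD37 12 h A (0.0959) or EMD37 24 h A (0.0876). FICD lost it without vehicle 12 h A (0.0750), EMD37 12 h A (0.0768), EMD37 12 h B (0.0609), vehicle 24 h B (0.0556) or EMD37 24 h B (0.0747). TRIM5 lost it without vehicle 12 h B (0.199), EMD37 12 h A (0.108), EMD37 12 h B (0.125), EMD37 24 h A (0.149) or EMD37 24 h B (0.0619), and in 3 other settings. The stretches around the element are printed 5′ to 3′ along the gene for 3 fading rises and for CANX, which shared the element and grew. Capitals mark the element, which in CRELD2 and CALR lies on the other strand.
HSPA5, chr9:125241351-125241449, minus strand, element 66 bases before the start: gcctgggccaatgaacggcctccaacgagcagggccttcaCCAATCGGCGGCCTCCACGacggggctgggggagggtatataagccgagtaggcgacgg
CRELD2, chr22:49918514-49918612, plus strand, element 80 bases before the start: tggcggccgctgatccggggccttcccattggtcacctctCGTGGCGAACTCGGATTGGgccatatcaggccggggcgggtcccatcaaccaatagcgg
CALR, chr19:12938359-12938442, plus strand, element 225 bases before the start: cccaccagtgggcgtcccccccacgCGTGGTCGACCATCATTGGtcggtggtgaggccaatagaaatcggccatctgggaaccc
CANX, chr5:179698738-179698836, plus strand, element 151 bases before the start: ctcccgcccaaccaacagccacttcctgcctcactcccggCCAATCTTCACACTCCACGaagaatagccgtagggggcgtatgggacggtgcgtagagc

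ERAD genes moved in both directions. Of 27 measured members, 7 were called lower in the interaction and 2 higher, against 7.94% and 7.96% of all genes. In this list 12 interactions lay above 0, and the median effect was log2 0.28 at 12 h and 0.38 at 24 h. Of the 7, 5 were fading rises, ERLIN2 was a growing fall (interaction -0.68) and EDEM3 changed sign (-0.58). The lower calls numbered 4 without vehicle 12 h B or EMD37 12 h B. HERPUD1, a membrane protein that gathers the degradation complex (chromosome 16, 56932048 to 56944863), moved most. It stood at 46.4 and 40.2 CPM in vehicle and 647 and 630 with EMD37 at 12 h, then at 36.9 and 33.1 against 147 and 170. The EMD37 libraries at 24 h lay between vehicle and EMD37 at 12 h, without overlap. The effect fell from 14.8-fold to 4.52-fold (interaction -1.71 ± 0.14, adjusted p = 9.39e-07). SYVN1, the ubiquitin ligase of the same complex, went from log2 1.76 to 0.86 (interaction -0.90, adjusted p = 0.00406). SELENOS, which links the complex to the extraction machinery, went the other way, from log2 0.75 to 1.43 (interaction 0.67, adjusted p = 0.00144). Genes of ER calcium handling, a separate list, had 3 higher and 2 lower interaction calls among 19 measured members. Their interactions lay above 0 for 12 members. Among the 2 called lower was ATP2A2, the pump that fills the ER with calcium. It stood at 174 and 181 CPM in vehicle against 271 and 272 with EMD37 at 12 h. At 24 h its EMD37 libraries held 158 and 184 CPM and its vehicle libraries 158 and 174, and the effect was log2 0.05 (interaction -0.57 ± 0.12, adjusted p = 0.00381).

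**Figure D2:**
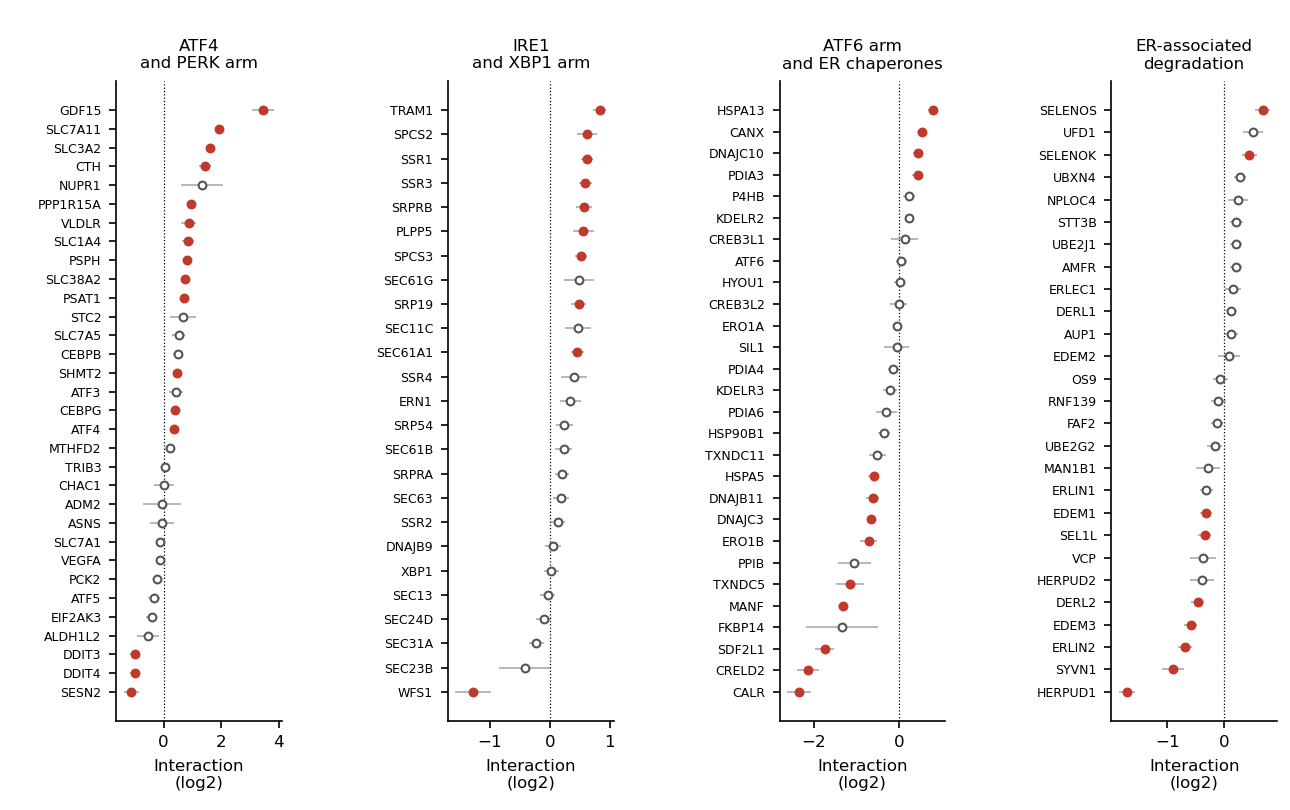
Interaction (log2, x axis) of every measured member of 4 ER stress lists, with bars of 1 standard error; filled red points were called and open points were not. CALR (-2.35), CRELD2 (-2.13) and HERPUD1 (-1.71) lie at the low end, and GDF15 (3.47), SLC7A11 (1.94) and TRAM1 (0.83) at the high end of their lists.

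The ATF4 arm split. Of 32 measured members, 13 were called higher in the interaction, all growing rises, and 3 lower, all fading rises. The median effect was log2 1.00 at 12 h and 1.82 at 24 h, and the median interaction was 0.43. The higher calls numbered 8 without EMD37 12 h A or EMD37 24 h B. ATF4 itself went from 1.65-fold to 2.13-fold (interaction 0.37 ± 0.11, adjusted p = 0.0250). This call was lost without vehicle 12 h A (0.0939), vehicle 12 h B (0.0865), EMD37 12 h A (0.140), EMD37 12 h B (0.0586) or EMD37 24 h B (0.0904).

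GDF15, a secreted stress hormone of the TGF-beta family, stood at 2.24 and 2.57 CPM in vehicle and 8.20 and 6.37 with EMD37 at 12 h. At 24 h it stood at 1.20 and 1.4 against 49.0 and 38.2 CPM, so that the EMD37 libraries rose while both vehicle libraries lay lower than at 12 h. Its effect went from 3.02-fold to 33.3-fold (interaction 3.47 ± 0.38, adjusted p = 1.78e-05). SLC7A11 and SLC3A2 encode the light and heavy chain of the cystine transporter. SLC7A11 stood at 521 and 528 CPM in vehicle against 1031 and 1017 at 12 h, and at 241 and 238 against 1745 and 1849 at 24 h. SLC3A2 stood at 251 and 269 against 484 and 507 at 12 h, and at 205 and 224 against 1293 and 1211 at 24 h. Both chains were above vehicle in every library at both times, and their interactions were 1.94 ± 0.10 (adjusted p = 9.50e-09) and 1.61 ± 0.11 (adjusted p = 1.87e-07). PPP1R15A (GADD34), which restores translation after PERK, went from 2.46-fold to 4.81-fold (interaction 0.97, adjusted p = 7.58e-05). Of the aminoacyl-tRNA synthetases, which charge transfer RNA and include ATF4 targets, 6 of 20 were called higher and 3 lower, the latter FARSB, QARS1 and HARS1. TARS1 (interaction 0.69), SARS1 (0.60), WARS1 (0.58) and CARS1 (0.57) were among the 6. The higher calls numbered 10 without vehicle 24 h A. The lower calls numbered 0 without vehicle 12 h B or EMD37 12 h B, 1 without vehicle 12 h A, EMD37 24 h A or EMD37 24 h B, and 5 without vehicle 24 h A. They also numbered 1 with RLE scaling, DESeq2, the replicate block or both tables in 1 fit. Each of the 3 lost its call without at least 2 libraries, with QARS1 at -0.23 without EMD37 12 h B (adjusted p = 0.309).

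DDIT3, DDIT4 and SESN2 were the members of the ATF4 list that faded. DDIT3 (CHOP) stood at 16.5 and 19.2 CPM in vehicle against 160 and 191 at 12 h, and at 23.4 and 18.5 against 104 and 106 at 24 h. Its EMD37 libraries lay above vehicle at both times and were lower at 24 h than at 12 h. The effect fell from 9.80-fold to 4.98-fold (interaction -0.98 ± 0.17, adjusted p = 0.00113). DDIT4, an inhibitor of mTORC1 signalling, rose over time under EMD37, from 142 and 141 CPM to 181 and 156 (log2 0.25, adjusted p = 0.0326). Its vehicle libraries went from 8.94 and 8.98 to 20.4 and 22.4 CPM, and the effect fell from 15.8-fold to 7.88-fold (interaction -1.0 ± 0.16, adjusted p = 0.000358). SESN2, which also restrains mTORC1, went from log2 2.95 to 1.82 (interaction -1.12, adjusted p = 0.00796). Without vehicle 24 h B the interaction of SESN2 was -0.73 and its call was lost (adjusted p = 0.0575).

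Known targets of the stress arms with no called interaction included XBP1, DNAJB9, CHAC1, ATF3, ASNS and TRIB3. XBP1 was 2.32-fold above vehicle at 12 h and 2.37-fold at 24 h (interaction 0.03 ± 0.12, adjusted p = 0.904). DNAJB9, an ER co-chaperone raised by XBP1, was 10.0-fold and 10.4-fold above vehicle (interaction 0.05 ± 0.13, adjusted p = 0.832). CHAC1, an ATF4 target that breaks down glutathione, was 7.86-fold and 7.96-fold above vehicle (interaction 0.02 ± 0.35, adjusted p = 0.982). Its standard error leaves room for a change of the size called in other genes. ATF3 had an interaction of 0.44 ± 0.23 (adjusted p = 0.227), which passed the threshold without vehicle 24 h A (0.0368). HSPA6, a heat-inducible HSP70, was 28.5-fold and 43.8-fold above vehicle (interaction 0.62 ± 0.27, adjusted p = 0.137). HMOX1, which breaks down heme, was 5.63-fold and 5.30-fold above vehicle (interaction -0.09 ± 0.16, adjusted p = 0.756). These tests give no evidence that the effects were equal.

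The list of the IRE1 and XBP1 arm, which here holds mostly parts of the channel and signal peptide machinery of the ER, had 25 measured members. Of these 15 were called higher than vehicle at 12 h and 23 at 24 h. In the interaction 9 were called higher and 1 lower, and the median effect went from log2 0.37 to 0.79. The higher calls numbered 4 without EMD37 12 h A. TRAM1, a translocon protein, stood at 616 and 587 CPM in vehicle against 738 and 708 at 12 h, and at 592 and 571 against 1175 and 1308 at 24 h. Its effect went from 1.20-fold to 2.14-fold (interaction 0.83 ± 0.11, adjusted p = 9.08e-05). SSR1 (interaction 0.62), SSR3 (0.59) and the signal peptidase subunit SPCS3 (0.52) moved by less. The member called lower was WFS1, an ER membrane protein, described with the genes that changed sign.

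Targets and feedback inhibitors of NF-kB, the transcription factor of inflammation, had a median interaction of 0.70, the highest of the lists. Of 29 measured members 14 were called higher and 1 lower, the cytokine gene LIF, and the median effect went from log2 0.82 to 1.57. Without single libraries 10 to 16 were called higher. The call of LIF was lost without vehicle 12 h A, EMD37 12 h A, EMD37 12 h B, vehicle 24 h B or EMD37 24 h B (adjusted p of 0.0521 to 0.109), and its interaction went from -0.61 to -0.35 without vehicle 24 h B. IL24, a cytokine of the IL-10 family (chromosome 1, 206897443 to 206904139), had 1.73 and 1.11 CPM in vehicle and 1.57 and 3.19 with EMD37 at 12 h. At 24 h it had 1.57 and 1.83 CPM in vehicle and 158 and 148 with EMD37. The groups overlapped at 12 h, and at 24 h the effect was 89.6-fold (interaction 5.74 ± 0.49, adjusted p = 1.33e-06). TNFAIP3 (A20), a feedback inhibitor of NF-kB, stood at 20.2 and 19.6 against 25.7 and 28.7 CPM at 12 h, and at 14.2 and 19.5 against 164 and 171 at 24 h. Its small early rise was followed by a 10.0-fold one (interaction 2.87 ± 0.18, adjusted p = 6.60e-08). IL6, an inflammatory cytokine, was already 7.66-fold above vehicle at 12 h and 23.2-fold at 24 h (interaction 1.6 ± 0.19, adjusted p = 3.00e-05). BIRC3 and TRAF1, which act at TNF receptors, had interactions of 1.26 and 1.26. Extracellular matrix and epithelial-mesenchymal transition formed a separate list of 35 measured members, 5 called higher in the interaction and 3 lower. Its interactions lay below 0 for 21 members. From that list MMP3 and MMP1, matrix-degrading enzymes, went from 2.30-fold to 18.5-fold and from 1.57-fold to 6.76-fold. TNFRSF9, a receptor of the TNF family, went from 1.73-fold to 16.5-fold.

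**Figure D3:**
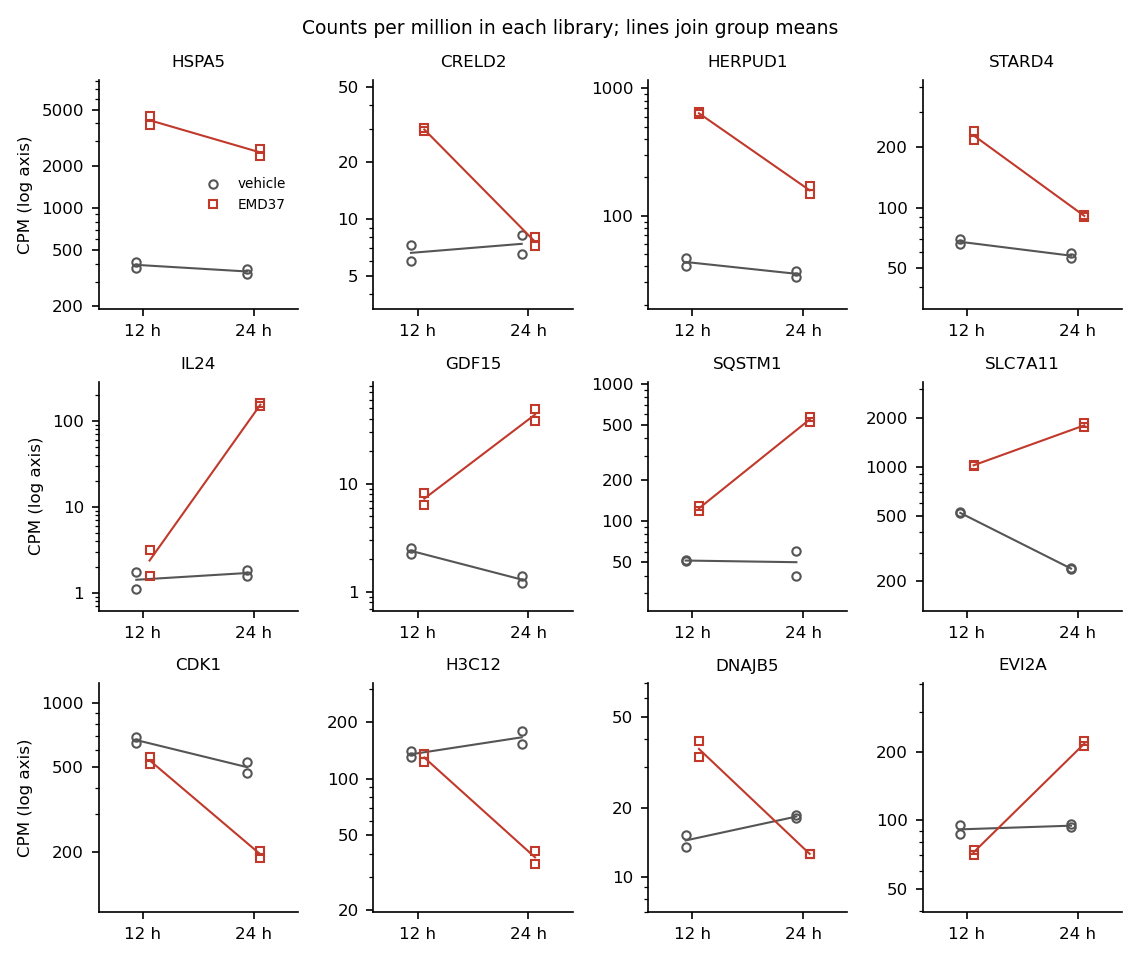
CPM (log axis) of 12 genes in each library, with vehicle as grey circles, EMD37 as red squares and lines joining the means of 2 libraries at 12 h and 24 h. HSPA5, CRELD2, HERPUD1 and STARD4 faded; IL24, GDF15, SQSTM1 and SLC7A11 rose further; CDK1 and H3C12 fell; DNAJB5 and EVI2A crossed the vehicle line.

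Genes of antioxidant defence, autophagy and the lysosome also had growing rises. Of 24 NRF2 targets 10 were called higher and 0 lower, and without single libraries 7 to 14 were. TXNRD1, a thioredoxin reductase, stood at 845 and 840 against 1150 and 1133 CPM at 12 h, and at 624 and 610 against 2219 and 2346 at 24 h (interaction 1.45 ± 0.10, adjusted p = 2.51e-07). GCLM, of glutathione synthesis, was not raised at 12 h (log2 0.03) and had log2 0.89 at 24 h. Its EMD37 libraries held 557 and 589 CPM at 24 h against 503 and 454 at 12 h, while vehicle went from 466 and 470 to 302 and 316. Of 34 autophagy genes 11 were called higher and 1 lower, ULK2, a kinase that starts autophagy, whose call was lost without EMD37 12 h B (adjusted p = 0.0511). SQSTM1 (p62), a cargo receptor, went from 2.40-fold to 11-fold (interaction 2.20 ± 0.18, adjusted p = 1.07e-06). GABARAPL1, of the ATG8 family that coats autophagosomes, went from 2.69-fold to 11.8-fold (interaction 2.13 ± 0.17, adjusted p = 8.19e-07). Of 34 lysosomal genes 10 were called higher and 1 lower, and the list's median effect went from log2 0.05 to 0.39. The lower one was CTSZ, a lysosomal protease, whose call was lost without vehicle 12 h A (0.119), vehicle 12 h B (0.0814), EMD37 12 h B (0.209), EMD37 24 h A (0.0964) or EMD37 24 h B (0.0716). NEU1, the lysosomal sialidase, went from 1.14-fold to 2.59-fold, and the proton pump subunit ATP6V1C1 from 1.02-fold to 2.11-fold. LIPA, the lysosomal acid lipase, was 0.946-fold and 0.942-fold of vehicle (interaction -0.01 ± 0.12, adjusted p = 0.978). Of 25 heat shock genes 6 were called higher and 0 lower, but 1 without vehicle 12 h A, 3 without EMD37 12 h A, 2 without EMD37 12 h B, 3 without EMD37 24 h B and 12 without vehicle 24 h A. DNAJB4, a cytosolic co-chaperone, kept its call (interaction 0.79 ± 0.12).

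Genes of cholesterol supply split between rises that faded and falls that grew. Of 25 measured members 8 were called lower in the interaction and 1 higher, LSS, an enzyme of sterol ring closure, whose call was lost without vehicle 12 h B (adjusted p = 0.0532) or EMD37 12 h B (0.0550). The lower calls numbered 5 without EMD37 12 h B, EMD37 24 h A or EMD37 24 h B. STARD4, a cholesterol carrier, stood at 69.3 and 65.6 against 241 and 218 CPM at 12 h, and at 59.2 and 55.8 against 89.9 and 91.8 at 24 h. Its EMD37 libraries lost most of their lead over vehicle without meeting it (interaction -1.11 ± 0.12, adjusted p = 1.15e-05). INSIG1, the ER anchor that holds back SREBP, went from 4.27-fold to 2.37-fold (interaction -0.85 ± 0.13, adjusted p = 0.000445). IDI1, an enzyme of the pathway, went from 1.44-fold to 0.963-fold. LIPG, a secreted lipase outside the list, stood at 6.81 and 7.44 against 26.3 and 26.6 CPM at 12 h, and at 6.01 and 6.68 against 6.55 and 5.31 at 24 h. Its groups were apart at 12 h and overlapped at 24 h (interaction -1.98 ± 0.26, adjusted p = 7.87e-05).

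The genes of cell division fell late. Of 45 measured genes of G2/M and mitosis 34 were called lower in the interaction and 0 higher, and the interaction was below 0 for 45 of 45, against 53.6% of all genes. Their median effect went from log2 -0.13 to -0.76. Of 46 genes of G1/S and DNA replication 30 were called lower and 0 higher, and 45 of 46 were below 0, with a median effect that went from -0.16 to -0.83. Without EMD37 12 h B these counts were 24 and 17. In bulk RNA fewer cells in a phase and less RNA per cell cannot be told apart. CDK1, the kinase that drives entry into mitosis (chromosome 10, 60778331 to 60794852), stood at 690 and 649 against 560 and 515 CPM at 12 h, and at 529 and 470 against 186 and 202 at 24 h. The effect deepened from 0.803-fold to 0.389-fold (interaction -1.04 ± 0.12, adjusted p = 2.09e-05). RRM2, a subunit of ribonucleotide reductase, was at 492 and 460 against 471 and 499 CPM at 12 h, with overlap, and at 416 and 400 against 173 and 174 at 24 h (interaction -1.26 ± 0.10, adjusted p = 1.07e-06). AURKB, a mitotic kinase (interaction -1.05), UBE2C (-1.15) and CDC20 (-0.91), both of the anaphase-promoting complex pathway, and CCNE2, a G1/S cyclin (-1.53), were not called at 12 h. PCNA, the sliding clamp of replication, had a smaller interaction of -0.49 ± 0.12 (adjusted p = 0.0125). This call was lost without vehicle 12 h B (0.0760), EMD37 12 h A (0.0569), EMD37 12 h B (0.0753) or EMD37 24 h A (0.105).

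Histone messages had the lowest median interaction of the lists, -1.69. Of 15 measured replication-dependent histone genes 14 were called lower, the exception being H1-4 (-0.77, adjusted p = 0.0890), and the median effect went from log2 0.30 at 12 h to -1.39 at 24 h. H1-4 passed the threshold without vehicle 24 h A (2.2e-13) and with no filter on low counts (3.95e-08). Without single libraries 12 to 15 were called. H3C12, a histone H3 gene outside the list, stood at 130 and 140 against 123 and 136 CPM at 12 h, and at 153 and 179 against 41.4 and 35.1 at 24 h. The groups overlapped at 12 h and were apart at 24 h (interaction -2.06 ± 0.14, adjusted p = 1.86e-07). H2BC5 went from 1.17-fold to 0.371-fold (interaction -1.65 ± 0.12) and H2AC20 from 1.16-fold to 0.323-fold (-1.84 ± 0.16). Histone genes share near-identical sequence, so the split of reads among them is uncertain. The list held 29 genes, of which 15 were measured, and how fully the library kit captured histone messages was not tested. Of 33 genes of homologous recombination and Fanconi repair 10 were called lower, but 1 without vehicle 12 h B, 2 without EMD37 12 h B or EMD37 24 h A and 3 without EMD37 24 h B. The same list had 6 lower calls without vehicle 12 h A and 5 without EMD37 12 h A.

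Promoters of growing falls were searched for the cell cycle homology region (CHR), TTTGAA, and for the E2F motif, TTTGGCGC or TTTCCCGC. Both strands were searched. The CHR letters were present in 148 of 849 growing falls (17.4%), 93 of 860 growing rises (10.8%), 10.4% of tested genes and 15.4% of the whole promoter table. They were also present in 5 of 21 fading falls (23.8%) and in 5 of 18 genes lower then higher (27.8%), so a high share was not limited to growing falls. The E2F letters were present in 59 growing falls (6.95%), 17 growing rises (1.98%), 3.62% of tested genes and 2.31% of the whole table. In growing rises the ATF4 motif TGATGNAAN was present in 28 of 860 (3.26%, against 1.91% of tested genes and 3.67% of the whole table). The AP-1 motif TGANTCA was present in 51 (5.93%, against 4.84% and 7.76%). The NF-kB letters, GGGA and CC with 4 bases of any kind between them, were present in 29.8% of growing rises, 30.5% of tested genes and 25.1% of the whole table. Stretches are printed 5′ to 3′ for 2 growing falls, with the CHR letters of CDK1 and the 2 E2F matches of MCM6, a subunit of the replicative helicase, in capitals. MCM6 went from log2 -0.32 to -1.20 (interaction -0.88, adjusted p = 0.00188).
CDK1, chr10:60778130-60778215, plus strand, CHR letters 161 bases before the start: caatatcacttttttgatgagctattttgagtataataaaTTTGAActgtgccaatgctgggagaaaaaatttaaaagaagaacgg
MCM6, chr2:135876486-135876635, minus strand, first E2F match 152 bases before the start: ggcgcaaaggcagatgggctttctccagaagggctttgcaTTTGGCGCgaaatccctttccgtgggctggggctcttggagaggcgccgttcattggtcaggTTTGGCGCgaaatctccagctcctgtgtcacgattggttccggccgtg

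Smaller groups of growing falls lay outside the cycle. Of 20 BMP and SMAD targets 5 were called lower and 2 higher, against 7.94% and 7.96% of all genes. In this list 11 interactions lay above 0, and the median interaction was 0.10. ID1 and ID3, inhibitors of differentiation and textbook targets of BMP signalling, deepened from 0.616-fold to 0.199-fold and from 0.557-fold to 0.170-fold. ID1 stood at 43.2 and 40.5 against 26.5 and 25.0 CPM at 12 h, and at 46.5 and 50.6 against 11.5 and 7.92 at 24 h (interaction -1.63 ± 0.20, adjusted p = 5.46e-05). SMAD6, a feedback inhibitor of the pathway, went from 0.526-fold to 0.165-fold. CCN2, a target of YAP and TGF-beta, went from 0.671-fold to 0.326-fold (interaction -1.04 ± 0.10), whereas CCN3, of the same family, went from 1.16-fold to 7.15-fold (interaction 2.62 ± 0.24). Of 32 interferon response genes 9 were called lower and 2, MX1 and IFIT5, higher, against the same shares of all genes. MX1 lost its call without vehicle 12 h A, EMD37 12 h A, EMD37 12 h B, vehicle 24 h B, EMD37 24 h A or EMD37 24 h B (adjusted p of 0.0579 to 0.161). IFIT1 fell from 0.781-fold to 0.441-fold of vehicle (interaction -0.83 ± 0.12), with vehicle at 182 and 164 CPM at 12 h and 268 and 252 at 24 h, and EMD37 at 130 and 141 and then 107 and 122. DUSP6, a phosphatase that dampens ERK, fell to 0.403-fold (interaction -1.03 ± 0.11), and DUSP10, which dampens p38 and JNK, rose to 5.64-fold (1.25 ± 0.11). Of 14 genes of the EGF receptor family and its ligands 4 were called lower and 1 higher, against the same shares. Their median effect went from log2 0.10 to 0.40. The lower calls numbered 2 without vehicle 12 h B, EMD37 12 h A or EMD37 24 h B. The ligand genes HBEGF (interaction -0.93) and TGFA (-0.75) had growing falls, and the receptor gene EGFR had a growing rise (0.66). The ligand genes AREG (log2 2.47 to 1.07) and NRG1 (0.76 to 0.36) were fading rises. AREG lost its call without vehicle 12 h B (0.0879), EMD37 12 h A (0.0953) or EMD37 24 h B (0.0565). NRG1 lost it without vehicle 12 h B (0.194), EMD37 12 h A (0.0654), EMD37 12 h B (0.146), vehicle 24 h A (0.0551), EMD37 24 h A (0.118) or EMD37 24 h B (0.0578).

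Falls that faded were few and mostly small. EDN1, the vasoconstrictor endothelin-1, stood at 68.0 and 68.6 against 24.6 and 26.7 CPM at 12 h, and at 76.1 and 76.5 against 45.1 and 51.3 at 24 h. It was lower with EMD37 in every library at both times, and the effect eased from 0.375-fold to 0.632-fold (interaction 0.75 ± 0.14, adjusted p = 0.00165). EDN1 was the one fading fall still called at 24 h, and the other 27 were not. BTG2, an antiproliferative gene, went from 0.544-fold to 1.4-fold on few reads, at most 7.72 CPM (interaction 1.36 ± 0.30, adjusted p = 0.00538). RAB30, of the Golgi, and the zinc finger gene ZNF559 went from 0.713-fold to 1.12-fold and from 0.671-fold to 1.04-fold. Of the 28 genes 6 had ZNF symbols, ZNF420, ZNF431, ZNF559, ZNF594, ZNF780A and ZNF845, against 3.01% of all genes tested, and related zinc finger genes can share reads. Of these 6, ZNF559 kept its call with each library left out, and the others lost it without vehicle 12 h A (adjusted p = 0.0529 for ZNF780A to 0.188 for ZNF420) and, except ZNF780A, without other libraries. The class held 5 and 15 genes without vehicle 12 h A and B, 8 and 7 without EMD37 12 h A and B, 16 without EMD37 24 h B, and 70 and 60 without vehicle 24 h A and B.

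For 37 genes the sign was called at both times and turned. DNAJB5, a cytosolic co-chaperone, stood at 15.2 and 13.5 against 33.3 and 38.9 CPM at 12 h, and at 18.6 and 18 against 12.6 and 12.6 at 24 h. Its EMD37 libraries were above both vehicle libraries and then below both, from 2.51-fold to 0.686-fold (interaction -1.87 ± 0.20, adjusted p = 1.33e-05). H2AC21, a histone gene (interaction -1.75), CDK5RAP3 (-1.48), the lipid transporter gene MFSD2A (-1.43), the kinase gene PIM2 (-1.41) and CDC6, a replication licensing factor (-1.30), turned the same way. CDC6 stood at 134 and 119 against 189 and 204 CPM at 12 h, and at 187 and 166 against 110 and 113 at 24 h. WFS1 turned from log2 0.71 to -0.57, with its call lost without EMD37 12 h B (adjusted p = 0.0547).

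Genes that were lower first and higher later were led by NEXN-AS1, EVI2A and TGFBR3. EVI2A (chromosome 17, 31317560 to 31321884) stood at 95.6 and 87.0 against 73.9 and 70.7 CPM at 12 h, and at 96.0 and 93.5 against 212 and 224 at 24 h. Vehicle hardly moved while the EMD37 libraries went from below to above it (interaction 1.54 ± 0.11, adjusted p = 3.30e-07). TGFBR3, a co-receptor for TGF-beta, went from 0.755-fold to 2.05-fold (interaction 1.44 ± 0.16). FIGN (1.25), ZNF112 (1.05) and NUAK1, a kinase related to AMPK (0.87), followed. TLR4, the receptor for bacterial lipopolysaccharide, went from log2 -0.25 to 0.53 (interaction 0.78, adjusted p = 0.000112). NEXN-AS1 is antisense to NEXN, and its reads cannot be assigned without strand (interaction 1.96 ± 0.39). The 19 genes of this direction numbered 2 and 5 without vehicle 12 h A and B, 2 and 1 without EMD37 12 h A and B, 10 and 7 without EMD37 24 h A and B, and 39 without vehicle 24 h A. The 18 genes of the other direction numbered 5 and 9 without vehicle 12 h A and B, 6 and 4 without EMD37 12 h A and B, 57 and 33 without vehicle 24 h A and B, and 12 without EMD37 24 h A.

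The interaction is also the change over time under EMD37 minus the change over time under vehicle. Over time 4624 genes were called under EMD37 (31.1%; 15.5% higher and 15.7% lower at 24 h) and 890 under vehicle (5.99%; 2.75% higher and 3.25% lower). Of the 2361 interactions 1818 (77.0%) had a called change under EMD37 and none called under vehicle. A called change under vehicle and none under EMD37 was found for 173 (7.33%), opposite calls for 99 (4.19%), and calls in the same direction for 84 (3.56%). Of the 78 fading rises 61 fell over time under EMD37 with no call under vehicle.

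Some growing effects lay in the vehicle arm. SLC16A1, a lactate transporter, stood at 19.3 and 17.3 CPM in vehicle at 12 h and at 2.13 and 3.34 at 24 h. With EMD37 it stood at 20.6 and 19.5 and then at 13.9 and 15.4, so that a 5.43-fold effect at 24 h came with a smaller fall under EMD37 than under vehicle (interaction 2.31 ± 0.27, adjusted p = 2.80e-05). E2F1, a transcription factor of S phase, went from 54.6 and 69.3 to 105 and 128 CPM in vehicle. Under EMD37 it held 60.2 and 66.5 and then 58.9 and 49.4 CPM, and the effect of log2 -1.11 at 24 h arose while EMD37 libraries moved little (interaction -1.14, adjusted p = 0.000363). PTGS2 (COX-2), of prostaglandin synthesis, held 98.9 and 104 CPM with EMD37 at 12 h and 109 and 120 at 24 h, while vehicle went from 11.6 and 10.0 to 6.38 and 5.49.

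**Figure D4:**
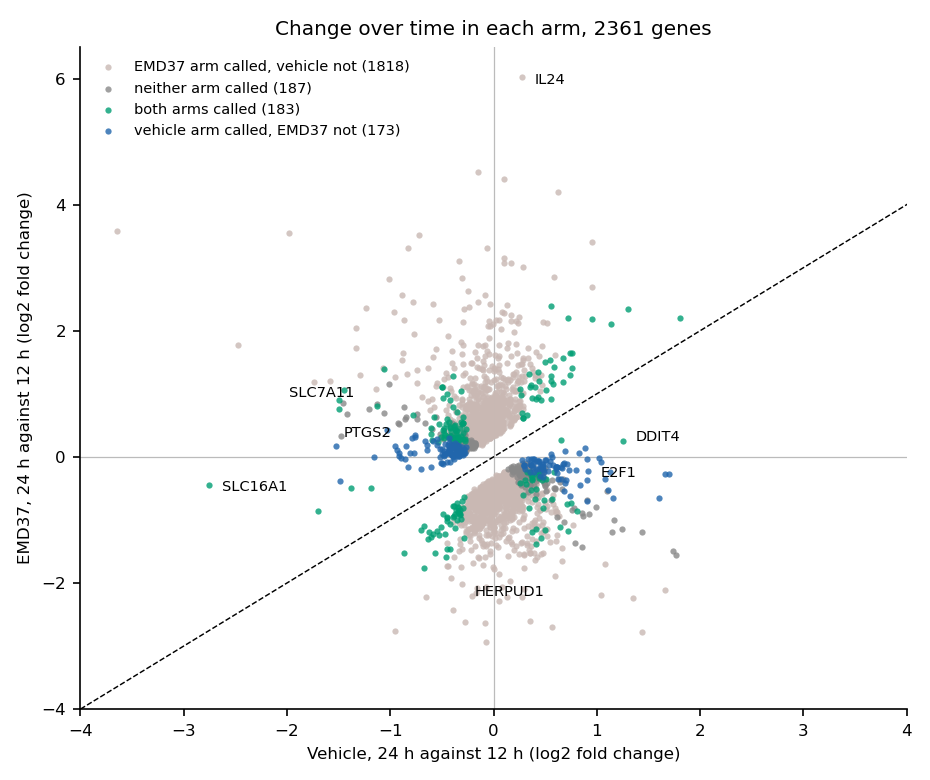
Change from 12 h to 24 h under vehicle (x axis) and under EMD37 (y axis), log2, for the 2361 genes; the distance from the dashed line of equal change is the interaction. Pale points, called under EMD37 alone, stretch along the vertical axis, whereas the 173 blue points and SLC16A1 (green, called in both arms; -2.75 under vehicle, -0.45 under EMD37) lie nearer the horizontal one.

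Genes that the count table lacked, fitted with it as reads recovered from the normalized values, had 99 higher calls (3.25%) and 108 lower calls (3.55%) among 3042. Several large gene groups showed few interactions. Of 35 proteasome genes 0 were called higher and 1 lower, of 52 ribosomal protein genes 0 and 4, and of 45 oxidative phosphorylation genes 1 and 2. The ribosomal protein calls numbered 0 without vehicle 12 h A or EMD37 12 h B, 2 without vehicle 12 h B or EMD37 24 h B, 1 without EMD37 24 h A and 8 without vehicle 24 h B. Shares at or below the background of 7.96% and 7.94% are no result about these groups. Of 11 measured markers of luminal breast epithelium 3 were called higher, CLDN4, ELF3 and AGR2, and 8 of the 19 listed stayed under 1 CPM in every library. Their summed level was 116 to 121 CPM with EMD37 at 24 h and 56.4 to 76.6 CPM in the other libraries. CLDN4, a tight junction protein, made up most of that and kept its call (interaction 1.09 ± 0.19). AGR2 reached at most 3.86 CPM and ELF3 2.22 CPM, and their calls were lost without single libraries. For AGR2 these were vehicle 12 h B (adjusted p = 0.255), EMD37 12 h B (0.0890) and EMD37 24 h B (0.100), and for ELF3 vehicle 12 h A (0.151), EMD37 12 h A (0.102), EMD37 24 h A (0.0544) and EMD37 24 h B (0.0634). Without EMD37 24 h B the list had 1 call. The part of these markers in the other rises was not tested.

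**Figure D5:**
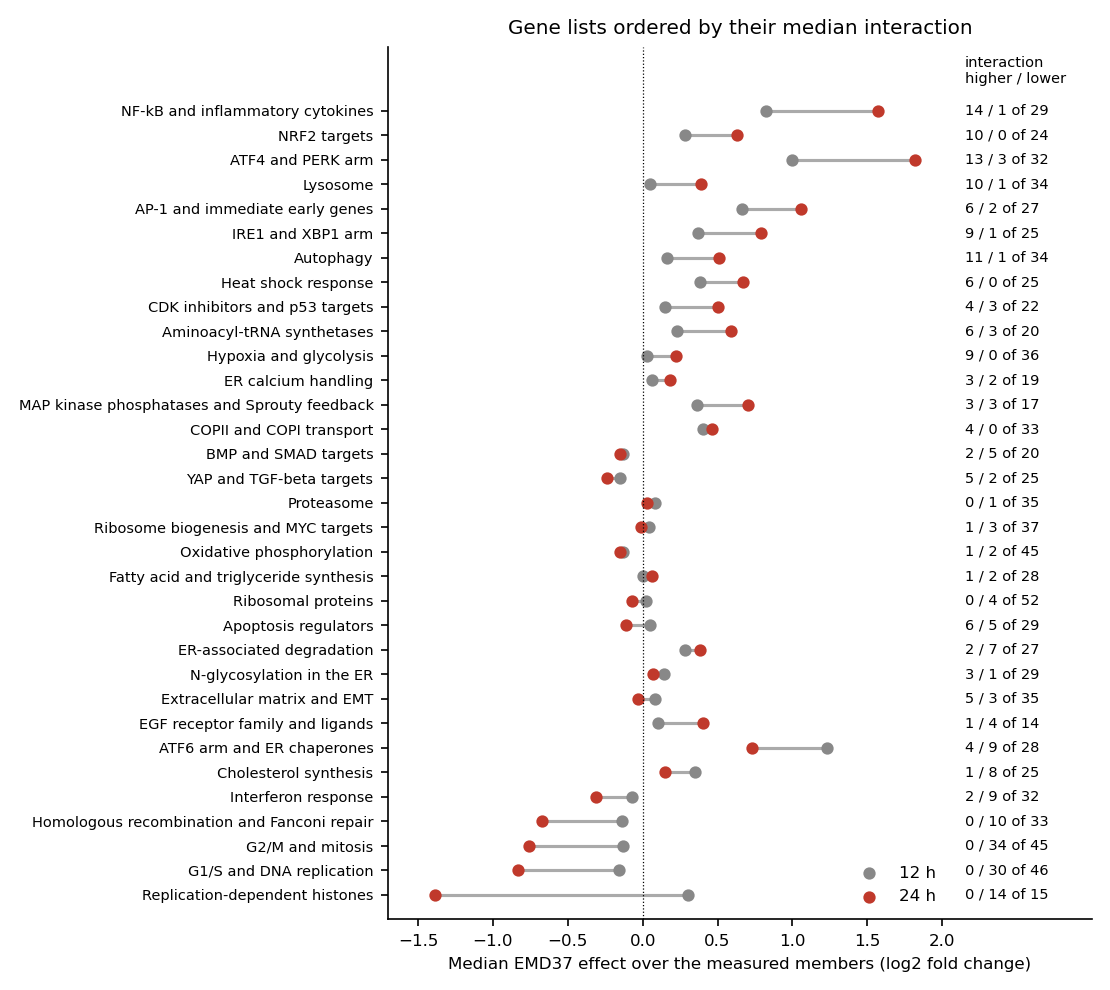
Median EMD37 effect (log2 fold change, x axis) at 12 h (grey) and 24 h (red) over the measured members of each list, with the numbers called higher and lower in the interaction; lists are ordered by median interaction. NF-kB (0.82 to 1.57) stands at the top and histones (0.30 to -1.39) at the bottom, and the median of the ATF6 and chaperone list moved down (1.23 to 0.73).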

How the data were processed

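RNA-seq libraries of 8 samples were used, 2 in each of 4 groups. A count table (whole reads per gene) deposited by the authors was the input to every test. A second deposited table held a normalized signal, equal to those reads over a size factor for each library. The submitters' processing notes name hg38 as the build and list FastQC, STAR and DESeq2; versions and counting settings are not given in the sources used here. Per the labels' protocols the kit was TruSeq V2, which does not mark strand. The count table ended inside a line and held 36715 genes. A further 6912 genes were recovered from the normalized table as reads, with 55296 of 55296 values whole within 0.01, and entered only an alternative and the other observations.

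In edgeR 4.0.16 (R 4.3.3), 14850 genes passed filterByExpr at its minimum count of 10, TMM scaling was applied, and a quasi-likelihood model with 1 mean per group and 4 residual degrees of freedom gave all contrasts, with Benjamini-Hochberg adjustment at 0.05 over all genes. On simulated data with 200 changed genes among 14850, the interaction test found 95% of log2 changes of 1 and 100% of those of 2. There were 7 false calls. In the simulation every gene had the same spread, the changed genes were well counted, and only the EMD37 24 h group was changed. Power and false calls for the measured genes, whose spread differs by gene, were not tested. DESeq2 1.42.0 was an alternative. Fold changes were fitted by edgeR. CPM used TMM-scaled library sizes, except for the marker sums, the ESAM values and the 1 CPM limit of markers, which used total counts. Library depth was 8.99 M to 11.44 M reads, and intervals were not taken from counts of single libraries.

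Same-lettered libraries were not paired in the main fit: deviations from group means correlated at -0.162 to 0.161 between groups. Whether they shared a culture or batch is not in the labels. Genes were named with GENCODE 29. Named genes were 22 sentinels, the largest interactions of each class with at least 5 CPM in a group, up to 4 members per list by smallest p, and the largest recovered genes. SESN2, SYVN1, DNAJC3, CANX, HSPA13, HYOU1, HSP90B1, ERO1B, FICD, TRIM5, NRG1, ASNS, TRIB3, MCM6, E2F1, PTGS2, WFS1, TLR4, IFIT5, ZNF420, ZNF431, ZNF594, ZNF780A, ZNF845 and the exceptions named in a list were chosen after their values were seen. The lists, classes and rules were chosen with earlier results of these data known.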

Additional observations from a re-analysis of the deposited data

Results flagged for a closer look

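The EMD37 effects at 12 h and at 24 h differed by the interaction test itself in 1182 genes with the higher effect at 24 h and in 1179 with the lower, at an adjusted p under 0.05 in edgeR.

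Among genes whose sign was called at both times and turned, those named are listed here for their interaction. Lower at 12 h and higher at 24 h were NEXN-AS1 (1.96), EVI2A (1.54), TGFBR3 (1.44), FIGN (1.25), ZNF112 (1.05) and NUAK1 (0.87). Higher at 12 h and lower at 24 h were DNAJB5 (-1.87), H2AC21 (-1.75), CDK5RAP3 (-1.48), MFSD2A (-1.43), PIM2 (-1.41), CDC6 (-1.30) and EDEM3 (-0.58). Groups of 2 libraries were not searched for single outlying libraries.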

How the results depend on the processing

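No called interaction took the other sign under any alternative. Of 176 genes taken by the naming rule and called in the interaction, 134 kept the call under every alternative that gave them an adjusted p. Of 43 called genes chosen after their values were seen, 28 lost the call under at least 1 alternative. A missing adjusted p was not counted as a lost call, and DESeq2 gave an adjusted p to 11678 genes. Scaling by total counts gave 43 fading falls and a share of higher calls of 42.6%, against 50.1% with TMM, 54.5% with RLE size factors and 57.6% with DESeq2. The median interaction of all genes was -0.097 with total counts, -0.019 with RLE and -0.044 with TMM. DESeq2 called 722 genes lower, with 644 growing falls, 49 fading rises, 12 genes lower then higher and 11 higher then lower. In DESeq2 HR and Fanconi repair had 3 lower calls, cholesterol synthesis 5 and luminal markers 1. The fit with a replicate block, which treats libraries of the same letter as paired, called 1072 genes higher and 1067 lower. It gave 10 genes lower then higher. Classes by sign and size alone, with no call at either time, held 686 growing rises, 47 fading rises, 4 fading falls, 492 genes lower then higher and 430 higher then lower. Interactions of at least 2-fold left 265 growing rises, 227 growing falls, 25 fading rises, 3 fading falls, 5 genes lower then higher and 9 higher then lower. Leaving out 1 library gave 677 to 1615 genes higher, 513 to 1621 lower, 649 to 1407 growing rises, 462 to 1320 growing falls, 35 to 151 fading rises, 5 to 70 fading falls, 1 to 39 genes lower then higher and 4 to 57 higher then lower. These fits assume that the lone library of a group varies like the other groups. Why the counts moved between settings was not tested. Depth limits genes of few reads, such as ELF3 and AGR2.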

Other observations

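Further gene groups held called interactions. Of 36 genes of hypoxia and glycolysis 9 were called higher and 0 lower, with 5 without EMD37 12 h B or EMD37 24 h B and 14 without vehicle 24 h A. SLC2A3, a glucose transporter, went from 1.57-fold to 5.70-fold of vehicle (interaction 1.86 ± 0.14), and BNIP3L, a mitophagy receptor, from 1.14-fold to 2.62-fold (1.20 ± 0.11). Fatty acid and triglyceride synthesis had 1 higher and 2 lower calls among 28 measured members. Both shares lie below the background and are no result about that list. Its higher call was PLIN2, which coats lipid droplets and went from 1.42-fold to 2.85-fold. CDKN1A (p21), an inhibitor of cyclin-dependent kinases, was a fading rise, at 44.4 and 47.3 against 115 and 121 CPM at 12 h and at 35.8 and 39.8 against 62.2 and 62.6 at 24 h (edgeR adjusted p = 0.00324). CDKN2C (p18), another such inhibitor, was a growing fall, from 0.820-fold to 0.350-fold. Apoptosis regulators went both ways, with 6 of 29 measured members called higher in the interaction and 5 lower. Their median effect went from log2 0.05 at 12 h to -0.11 at 24 h. Among those called higher, PMAIP1 (NOXA), which promotes apoptosis, rose from 1.21-fold to 2.25-fold. The inflammatory caspase gene CASP4 rose from 1.17-fold to 2.41-fold. MTUS1 went from 0.792-fold to 7-fold, at 5.39 and 4.70 against 3.59 and 4.38 CPM at 12 h and at 4.26 and 3.88 against 29.1 and 28.1 at 24 h.

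Genes recovered from the normalized table were fitted together with the count table. They had no alternative fits and no fits with a library left out, so the stability of their calls was not tested. H2BC14, a histone H2B gene, stood at 62.9 and 60.1 against 61.8 and 74.9 CPM at 12 h, and at 73.1 and 87.2 against 16.7 and 10.2 at 24 h (interaction -2.73 ± 0.21, edgeR adjusted p = 5.65e-08). H2BC17 (-2.10), H2AC14 (-1.97) and H2BC3 (-1.96) also fell late, under the same limit on near-identical histone genes. LINC02392, a long non-coding RNA, held 5.59 and 5.05 CPM with EMD37 at 24 h and at most 0.460 CPM in the other libraries, which is too few reads there for a fold. LINC01085 had an interaction of -2.03 ± 0.49.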
